A study of Rattus norvegicus with 30 samples.

Results

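The late risers are 167 of 22521 probes (0.742%) whose signal was higher after 5 days of induction in both PC12 cell lines that express mutant huntingtin. For the same probes, both lines that express a huntingtin fragment with a glutamine stretch of normal length stayed near their starting level. Among the 167, 2 probes hold identical values on every array, so there are 166 distinct measurements, and both are counted below. Over the whole array 577 probes share all their values with another. The members were chosen by measured values. Each line gave 2 RNA isolations per day, whose values were averaged, and a probe was taken if it rose by at least 0.3 from day 0 to day 5 in both Q74 lines. It also had to rise by less than 0.2 from day 0 to day 1 in at least one Q74 line and to change by less than 0.2 in either direction from day 0 to day 5 in both Q23 lines. These limits are on the natural log scale, where 0.3 is a 1.35-fold change and 0.2 a 1.22-fold change. The rises at day 5, the day 1 limit and the flat Q23 values are therefore properties of the choice, and are described here without a test.

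Huntington's disease is caused by an expanded CAG repeat in the huntingtin gene, which lengthens a polyglutamine stretch near the start of the protein and makes its fragments prone to aggregate. PC12 cells come from a rat phaeochromocytoma, a tumour of the catecholamine-producing chromaffin cells of the adrenal medulla, and are widely used as a neuron-like model. In a doxycycline-inducible line the transgene is switched on by adding the drug, so one culture can be followed from before the protein is made to the time when aggregates are common.

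All cells were rat PC12 cells. Q23 lines 1 and 5 and Q74 lines 4 and 6 carried a doxycycline-inducible exon 1 fragment of huntingtin with 23 or 74 glutamines fused to Green Fluorescent Protein, and PC12 cells without a construct were grown in the same conditions. RNA was taken on day 0 from uninduced cells, and on days 1 and 5 of 1 μg/ml doxycycline. According to the methods, few of the cells expressing mutant huntingtin held aggregates on day 1 and nearly all did on day 5. Each construct was represented by 2 independent lines, so a difference between constructs rests on 2 lines against 2, and line and construct cannot be told apart beyond that. Each line and day had 2 RNA isolations, which are technical replicates, and PC12 had 2 arrays per day, which gives 30 arrays in all. The series' design calls the PC12 arrays technical replicates, although their titles number them in a way that could mark separate cultures. A change in a bulk RNA sample can come from fewer or more cells that express a transcript or from less or more RNA per cell, and these cannot be told apart. No table that pairs the probes with genes was given, so members are described by their values, no gene is named, and the chromaffin identity of the cells could not be checked against marker genes.

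The files give no depth, and the number of arrays limits the precision. The 2 isolations of a line and day correlated across probes with r from 0.992 to 0.997, and no pair of arrays held identical values. The SD between isolations had a median of 0.0597 over all probes and 0.0761 over the late risers. Array means were 5.57 to 5.58 for the 24 arrays of the 4 lines and 5.51 to 5.52 for the 6 PC12 arrays, and array medians were 4.74 to 4.82 and 4.80 to 4.85. The sources used here do not say whether all arrays were normalized together, so levels in PC12 and in the lines may not be on one scale and are compared only as a description.

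Across the late risers the median signal in Q74 line 4 was 6.14 on day 0, 6.21 on day 1 and 6.72 on day 5. In Q74 line 6 it was 6.16, 6.20 and 6.54. In Q23 line 1 it was 6.10, 6.12 and 6.17. The Q23 medians barely moved over the course. In Q23 line 5 the median was 6.22, 6.22 and 6.26, and in PC12 it was 6.02, 6.05 and 6.04. Before induction the medians of the 4 lines thus lay between 6.10 and 6.22, and they separated between day 1 and day 5.

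**Figure D1:**
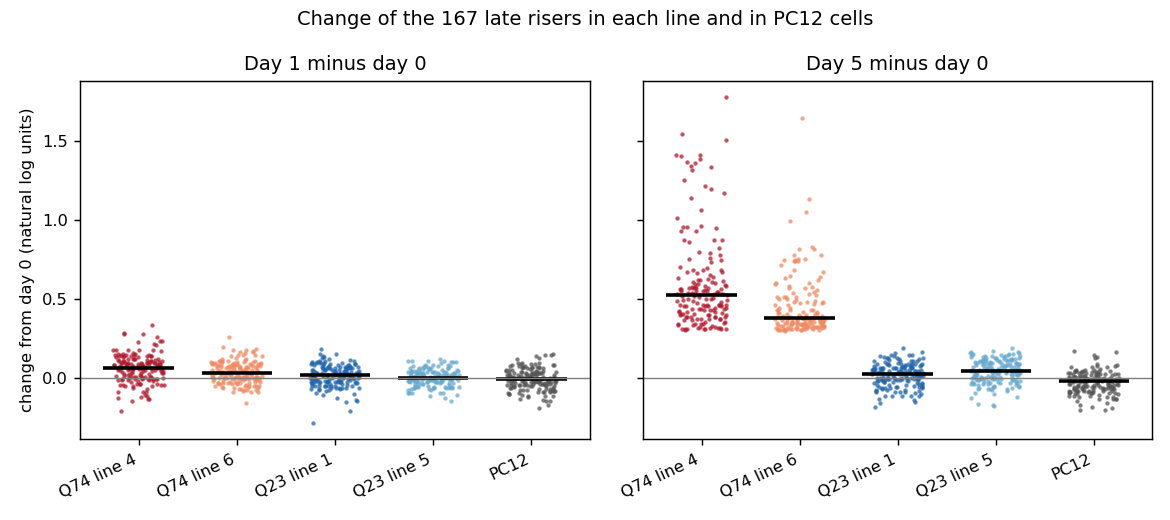
Change from day 0 of each of the 167 late risers (points, natural log units) on day 1 (left) and day 5 (right) in the 4 lines and PC12 cells, with the median as a black bar. On day 5 the medians were 0.53 in Q74 line 4 and 0.38 in Q74 line 6, while those of the Q23 lines and PC12 lay between -0.02 and 0.05; the choice of probes used all of these day 5 changes except those of PC12.

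The rise at day 5 was larger in line 4 than in line 6. In line 4 it ran from 0.304 to 1.78 with a median of 0.526, a 1.69-fold change with a range of 1.36-fold to 5.93-fold. In line 6 it ran from 0.3005 to 1.65 with a median of 0.379, a 1.46-fold change with a range of 1.35-fold to 5.21-fold. The rise was larger in line 4 for 132 members and larger in line 6 for 35. The median gap between the lines was 0.115, and the rises of 62 members lay within 0.1 of each other. Line 4 exceeded line 6 by at least 0.3 for 37 members, and line 6 exceeded line 4 by that much for 5.

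The lines differed in the same way over the whole array. At day 5, 915 probes (4.06%) had risen by at least 0.3 in line 4 and 310 (1.38%) in line 6, against 3 in Q23 line 1, 7 in Q23 line 5 and 13 in PC12. The overlap of the 2 Q74 lists was 177 probes, while 738 rose that far in line 4 alone and 133 in line 6 alone. Of the 100 largest rises on the array, 46 in line 4 and 62 in line 6 were late risers, and the single largest rise of each line was among them. The choice required a rise of at least 0.3 in both lines, so it favours this. Across the 167 members the rises of the 2 lines had r = 0.56 and rho = 0.37, against r = 0.55 over all probes. These are descriptions across probes, which share their arrays and are not independent.

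**Figure D2:**
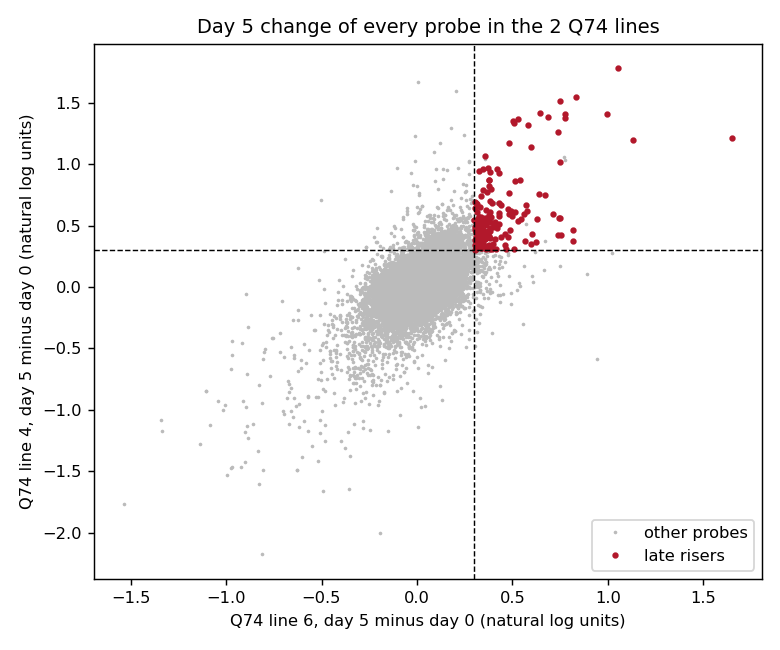
Change from day 0 to day 5 of all 22521 probes in Q74 line 6 (x axis) and Q74 line 4 (y axis), in natural log units, with the late risers in red and the limits of 0.3 as dashed lines. The late risers fill the corner above both limits and many lie close to a limit. For 70 of the 167, the smaller of the rises in line 4 and line 6 was under 0.35.

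Most members were small changes. Both rises were under 2-fold for 121 members and under 1.5-fold for 33, and only 10 members were raised at least 2-fold in both lines. A further 29 reached 2-fold in line 4 alone and 7 in line 6 alone. The limits cut through a continuous distribution. The members just inside had a smaller rise of 0.3005 and 0.302 and the probes just outside 0.299 and 0.299, with 17 members under 0.31 and 12 non-members from 0.29 to 0.3. Of the 177 probes past 0.3 in both lines, 10 exceeded the Q23 limit. The largest Q23 change of a member was 0.191 and the smallest among those 10 was 0.203.

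The day 1 limit removed no probe. None of the 177 probes that rose by 0.3 in both Q74 lines had a day 1 rise of 0.2 or more in both, and the highest smaller day 1 change of a member was 0.198. So each of the 177 counted as late by a limit that asks for a small day 1 change in only 1 Q74 line. Day 1 rises of 0.2 or more were rare over all 22521 probes, at 316 in line 4 and 172 in line 6. The count of 0 is therefore not read as a trait of these probes. Among the 213 probes that fell by at least 0.3 in both lines, 16 had already fallen by at least 0.2 on day 1 in both. No test was made of the difference between the 177 risers and the 213 fallers.

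By day 1 little of the later rise was present. The day 1 change had a median of 0.0649 in line 4, with a range of -0.208 to 0.338, and of 0.0319 in line 6, with a range of -0.159 to 0.258. As a share of the day 5 rise this was a median of 11.4% in line 4 (quartiles -0.0216% and 20.7%) and 6.09% in line 6 (quartiles -2.78% and 19.3%). The line 4 value rested on isolation 1. In isolation 1 the median day 1 change was 0.102 in line 4 and 0.0232 in line 6, with median shares of 17.3% and 5.53%. In isolation 2 the changes were 0.00891 and 0.0384 and the shares 1.84% and 8.5%, so the order of the lines turned. More than 50% of the rise was present on day 1 for 4 members in line 4 and for 1 in line 6. From day 1 to day 5 the members gained a median of 0.46 in line 4 and 0.361 in line 6, and every member gained at least 0.143 and 0.137.

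The small day 1 changes were nevertheless tilted upward. They were above 0 in line 4 for 125 members (74.9%, against 51.9% of all probes) and in line 6 for 113 (67.7%, against 46.1%). They were above 0 in both lines for 87 members (52.1%, against 24.8% of all probes) and below 0 in both for 16. The day 0 arrays enter both the day 1 change and the day 5 rise used in the choice, so a low day 0 value raises both. Read in the RNA isolation that had not been used to choose the probes, the day 1 share above 0 in line 4 was 50.4% against 46.7% of all probes, or 71.7% against 54.1%, depending on the isolation. In line 6 it was 63.7% against 49.3% and 60.4% against 45.4%. Both isolations come from the same line and day, so this reading cannot separate the tilt from a low day 0 level that both share.

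By timing, 156 members stayed below 0.2 on day 1 in both Q74 lines and the others reached it in one. For 10 of these it was line 4, where the day 1 change was 0.207 to 0.338 and the day 5 rise 0.375 to 1.78. In line 6 the same 10 stood at -0.0737 to 0.198 on day 1 and rose by 0.331 to 1.05 by day 5. The remaining member moved first in line 6, with 0.258 on day 1 and 0.744 on day 5, against 0.177 and 0.561 in line 4. These groups were cut at the limit of the choice itself and were not tested against each other.

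The 2 members with the largest rise in the less responsive line are given on every array. For probe ILMN_1349269 the 2 isolations of Q74 line 4 read 5.23 and 5.56 on day 0, 5.19 and 5.43 on day 1, and 6.52 and 6.71 on day 5. In Q74 line 6 they read 6.21 and 6.51, then 6.30 and 6.49, then 7.96 and 8.06. In both lines each day 5 array lay above every earlier array, and day 1 was indistinguishable from day 0 given the gap between isolations. The rise was 3.37-fold in line 4 and 5.21-fold in line 6, the largest of line 6.

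In Q23 line 1 ILMN_1349269 read 5.55 and 5.39 on day 0, 5.66 and 5.49 on day 1, and 5.67 and 5.52 on day 5. In Q23 line 5 it read 5.52 and 5.60, then 5.56 and 5.65, then 5.74 and 5.72. In PC12 it read 6.39 and 6.28, then 6.26 and 6.22, then 6.25 and 6.30. Before induction line 6 and PC12 thus lay close together and line 4 lay with the Q23 lines, so that the Q74 lines started apart and both moved up. On day 0 the Q74 lines exceeded the Q23 lines by 0.36 (standard error 0.48), with an adjusted p of 0.967 in limma.

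Probe ILMN_1374039 rose by a similar amount in both lines. In Q74 line 4 it read 6.36 and 6.48 on day 0, 6.32 and 6.41 on day 1, and 7.65 and 7.58 on day 5. In Q74 line 6 it read 6.89 and 7.22, then 6.90 and 7.03, then 8.14 and 8.24. The rises of 1.20 and 1.13 followed day 1 changes of -0.05 and -0.09, so nothing of the rise was visible after 1 day.

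In Q23 line 1 ILMN_1374039 read 6.19 and 6.18, then 6.13 and 6.32, then 6.20 and 6.33, and in Q23 line 5 it read 6.38 and 6.59, then 6.36 and 6.56, then 6.30 and 6.53. In PC12 it read 5.59 and 5.73, then 5.57 and 5.91, then 5.60 and 5.80. PC12 lay below all 4 lines on every day, and on day 5 the Q74 arrays lay above every Q23 and PC12 array. On day 0 the difference between constructs was 0.40 (standard error 0.27), with an adjusted p of 0.930 in limma.

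**Figure D3:**
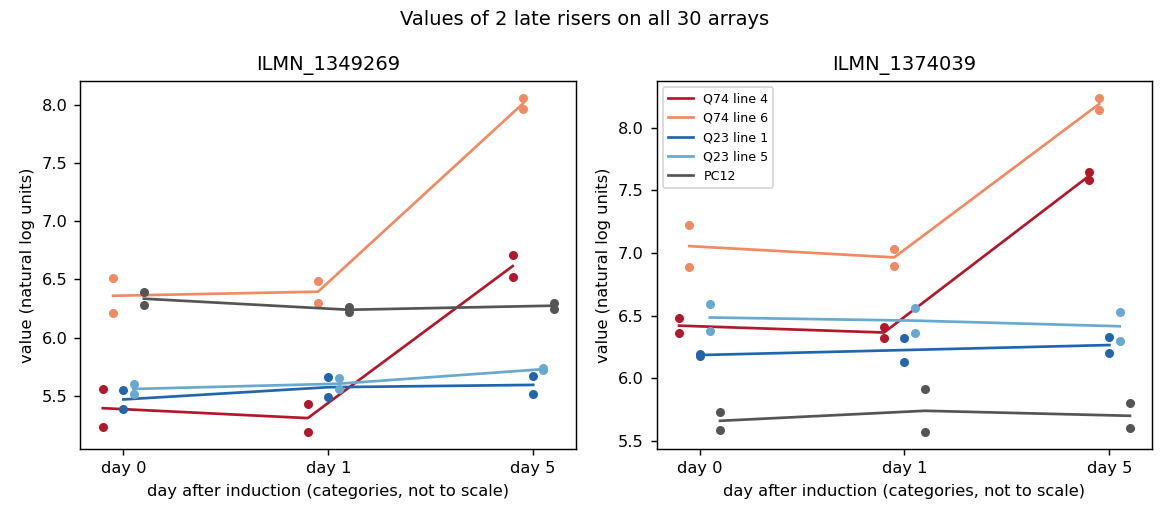
Values of ILMN_1349269 (left) and ILMN_1374039 (right) on all 30 arrays, in natural log units (y axis), by day (x axis); points are RNA isolations and lines join the means of each cell line. Both Q74 lines are level from day 0 to day 1 and rise by day 5, by 1.22 and 1.65 for the left probe and by 1.20 and 1.13 for the right probe, while the Q23 lines and PC12 stay level.

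The 10 members raised at least 2-fold in both lines, which include both named probes, rose by 1.01 to 1.78 in line 4 (median 1.39) and by 0.740 to 1.65 in line 6 (median 0.805). Their PC12 changes at day 5 were -0.0828 to 0.0513. They did not share a starting level, since their line 4 values on day 0 ran from 4.49 to 8.19. The probe with the largest line 4 rise went from 5.98 on day 0 to 6.19 on day 1 and 7.76 on day 5. The same probe went from 4.91 to 5.06 to 5.97 in line 6, so the lines differed by more than 1 unit at every time. Another of the 10 started at 4.49 in line 4 and 4.42 in line 6, below the level that marks the dimmest 25% of all probes by Q23 level (4.52), and reached 5.90 and 5.20. VSN is nearly linear for such dim probes, so its fold change is understated.

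The late risers came mainly from the brighter part of the array. All probes were ranked by the mean Q23 level on day 0 and cut into 4 equal bins at 4.52, 4.77 and 6.38. The dimmest bin held 3 members, the next 10, the third 83 and the brightest 71. By the PC12 level on day 0 the same counts were 6, 23, 60 and 78. The median member ranked at 72.6% by Q23 and 72.5% by PC12. On day 5 the mean Q74 level put 71 members in the third bin and 96 in the brightest, with a median rank of 77.4%. The size of the rise varied little with the starting level, with a median mean rise of 0.601, 0.497, 0.493 and 0.421 in the 4 bins of Q23 level from dim to bright (r = -0.18 across the 167 members). A dim probe has to change more to pass a limit on this scale, and the part of this in the low number of dim members was not tested.

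The level on day 0, which the choice did not limit, was then compared between constructs. In limma, 26 of 22521 probes had a different level in the Q74 than in the Q23 lines on day 0 at an adjusted p under 0.05 (0.115%), and 0 of the 167 late risers were among them (smallest adjusted p 0.302). This contrast uses the same day 0 arrays as the choice. At an unadjusted p under 0.05 there were 35 late risers (21.0%), 21 lower and 14 higher in Q74, against 1349 of all probes (5.99%). With 2 lines per construct the standard error had a median of 0.126 over the members. Even the widest differences among the members, 2.07 and -0.765, were not called in limma (adjusted p 0.302 and 0.477). Their own standard errors were 0.46 and 0.20, above that median. Large differences could thus go undetected for probes on which the lines of a construct lay apart. When each isolation was taken as a sample with the line as a random block, 9 members were called. Calls over all probes were not counted in that fit, so the 9 is not read as a trait of the members. At the share of 0.115% over all probes, a set of 167 would hold few or no calls, so the 0 is not read as a trait of the members. It also rests on treating the lines as the replicates and on the spread between them.

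By the order of the lines, the members leaned downward on day 0. On day 0 both Q74 lines lay above both Q23 lines for 26 members (15.6%, against 15.8% of all probes), and both lay below for 48 (28.7%, against 16.5%). The lines overlapped for the other 93. Among all probes brighter than the median Q23 level on day 0, 20.3% lay below and 11% above. The tilt downward shares its day 0 arrays with the choice. For probes chosen in one isolation and read in the other, both Q74 lines lay below for 26 of 135 (19.3%, against 16.4% of all probes) and for 34 of 159 (21.4%, against 15.4%). The isolations share the line and day, so a low day 0 level common to both is not removed by this.

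By day 5 the order had changed. Both Q74 lines lay above both Q23 lines for 138 members (82.6%, against 19.4% of all probes), below for 2 and overlapped for 27, an order that the choice favours. All 26 members that were above on day 0 were above on day 5, and 112 were above only then. Of the 48 that started below both Q23 lines, 36 ended above, 10 overlapped and 2 stayed below. The median difference between the construct means was -0.0483 on day 0 (range -0.765 to 2.07), 0.000388 on day 1 and 0.399 on day 5 (range -0.308 to 2.4). For the 27 overlapping and the 2 lower members, the rise did not carry both Q74 lines above both Q23 lines.

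**Figure D4:**
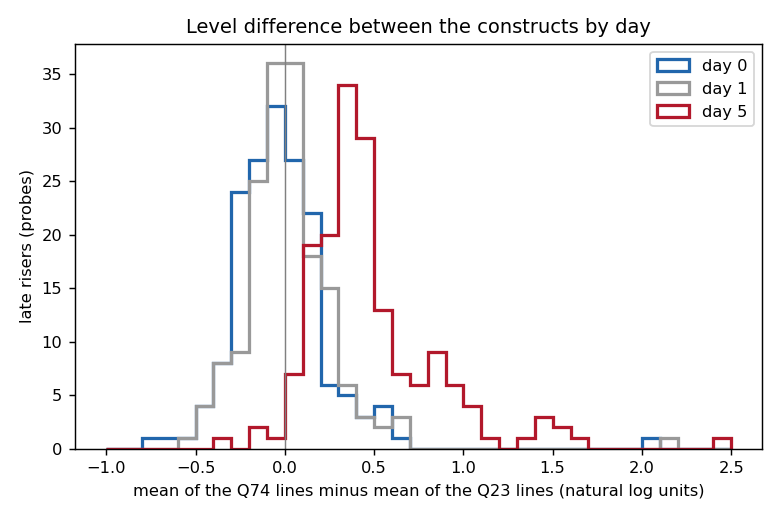
Histogram of the mean level of the 2 Q74 lines minus the mean of the 2 Q23 lines (x axis, natural log units, bins of 0.1) over the 167 late risers (y axis, number of probes) on day 0, day 1 and day 5. The day 0 and day 1 curves are centred near 0 with medians of -0.0483 and 0.000388, and the day 5 curve has a median of 0.399, a shift that the choice of probes required.

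The widest member stood apart before induction. Its level was 7.32 in line 4 and 6.16 in line 6 on day 0, against 4.63 and 4.71 in the Q23 lines and 4.51 in PC12. By day 5 it read 7.63 and 6.67, against 4.69 and 4.80 in the Q23 lines. The day 0 difference of 2.07 (standard error 0.46) had an adjusted p of 0.302 in limma, while its rise of 0.308 in line 4 was among the smallest taken.

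Line 4 and line 6 also differed in level from each other. Their levels were at least 0.3 apart for 59 members on day 0, 53 on day 1 and 72 on day 5. Line 4 was above line 6 for 80, 86 and 113 of the 167, with median gaps of -0.0158, 0.00903 and 0.152. The lines were evenly placed up to day 1, and line 4 led after the larger rise. These counts were not made over all probes, so whether such gaps are particular to the late risers was not tested.

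The Q23 lines were limited by the choice on day 5 but not on day 1. In limma, 0 of the 167 late risers and 0 of 22521 probes (0.0%) passed an adjusted p of 0.05 for a change in the Q23 lines between day 0 and day 1. At an unadjusted p under 0.05 there were 2 members (1.20%) and 644 of all probes (2.86%). The day 1 changes had a median of 0.0182 in Q23 line 1 (range -0.285 to 0.185) and 0.0015 in Q23 line 5 (range -0.144 to 0.121), and 2 members moved by 0.2 or more, both downward and in line 1. Falls of 0.2 or more were not counted over all probes, so the 2 falls in line 1 are not read as a trait of the members. Smaller changes than the test could detect remain possible.

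Within the limit, the day 5 changes of the Q23 lines leaned upward. The median was 0.0229 in Q23 line 1 and 0.0452 in Q23 line 5, and 98 and 118 members were above 0 (58.7% and 70.7%, against 48.1% and 51.5% of all probes). Both lines were above 0 for 75 members (44.9%, against 25.2% of all probes inside the same limit) and below 0 for 26. In the isolation not used to choose, Q23 line 5 was above 0 for 87 of 135 probes (64.4%, against 49.4%) and for 113 of 159 (71.1%, against 53.4%). Q23 line 1 differed between isolations, with 63 of 135 (46.7%, against 48.8%) in isolation 2 and 116 of 159 (73.0%, against 46.9%) in isolation 1. No test was made of these shares.

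PC12 cells with no construct received the same doxycycline, and their values did not enter the choice. Their day 5 change over the late risers had a median of -0.0207, with a range of -0.203 to 0.172, against a median of -0.00812 over all probes. It was above 0 for 54 members (32.3%, against 45.7% of all probes). No member changed by 0.3 or more in PC12 on either day, and 2 changed by 0.2 or more on day 5, both downward. Rises of 0.3 or more were rare over the whole array too. Of 22521 probes, 11 rose by 0.3 or more in PC12 on day 1 and 13 (0.0577%) on day 5. Rises of 0.2 or more on day 5 were seen for 156. Falls of these sizes were not counted over all probes, so the 2 falls have no share beside them. The low counts among the members are therefore not read as a trait of theirs. As a share of the mean Q74 rise of the same probe, the PC12 change had a median of -4.55% and a range of -54.2% to 37.9%. The 2 PC12 arrays of a day were treated as technical replicates of 1 culture, after the series' design, so no test was made. The sign of the median PC12 change at day 5 depended on the scaling of the arrays, being 0.00097 after quantile normalization.

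The level in PC12 on day 0 lay below all 4 lines for 74 members (44.3%, against 39.6% of all probes) and above all 4 for 51 (30.5%, against 27.5%). It lay below both Q74 lines for 80 (against 46.7% of all probes) and above both for 63 (against 33.6%). On day 5 it lay below both Q74 lines for 135 members (80.8%, against 44.3% of all probes) and above both for 11 (against 36.3%). The choice required the Q74 lines to rise by day 5, so it favours this order.

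The individual arrays separated as follows. In both Q74 lines both day 5 arrays lay above all 4 earlier arrays of the line for 156 members, against 5.02% of all probes. For line 4 alone it was 158 (12.2% of all probes) and for line 6 alone 165 (13.8%). The same held for 5 members in Q23 line 1 (4.82% of all probes), 21 in Q23 line 5 (6.71%) and 0 in PC12 (5.88%). The counts of the 4 lines follow from the choice in part, and those of PC12 do not.

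Each isolation was also taken alone. All 167 members rose in both isolations of both lines, with a lowest single rise of 0.0132, and 96 rose by at least 0.3 in all of them. The choice required the mean of these 2 isolations to rise by at least 0.3 in each line, so these counts follow from it in part. The same counts were not made over all probes. The rises of the 2 isolations differed by a median of 0.182 in line 4 (highest 0.694) and 0.0754 in line 6 (highest 0.426). In line 4 the median rise was 0.584 in isolation 1 and 0.461 in isolation 2, and in line 6 it was 0.388 and 0.397. The median rise was thus larger in line 4 in both isolations, by more in isolation 1, and the line 6 values were the steadier.

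Applied to isolation 1 alone the same limits chose 135 probes, of which 97 were late risers, and applied to isolation 2 alone they chose 159, of which 110 were. The lists shared 62 probes, which is 45.9% of the first and 39.0% of the second, and 22 of the 167 were in neither. Read in isolation 2, the probes chosen in isolation 1 had a median day 5 change of 0.385 in line 4, above 0 for 133 of 135, and 0.349 in line 6, above 0 for 134. Of all probes, 48.4% and 50.3% were above 0 there. In the isolation of the choice their medians were 0.540 and 0.388. In the unused isolation 90 of 135 reached 0.3 in line 4 (3.57% of all probes) and 88 in line 6 (1.93%).

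Read in isolation 1, the probes chosen in isolation 2 had a median day 5 change of 0.529 in line 4, above 0 for 152 of 159, and 0.351 in line 6, above 0 for 158. In the isolation of the choice the medians were 0.487 and 0.397, so for this list the line 4 value was larger on re-reading and the line 6 value smaller. In the unused isolation 127 of 159 reached 0.3 in line 4 (6.83% of all probes) and 101 in line 6 (1.87%). The median changes in PC12 were -0.0249 and -0.0352 for the 2 lists. The isolations come from the same lines, so this compares RNA preparations and not independent cells.

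**Figure D5:**
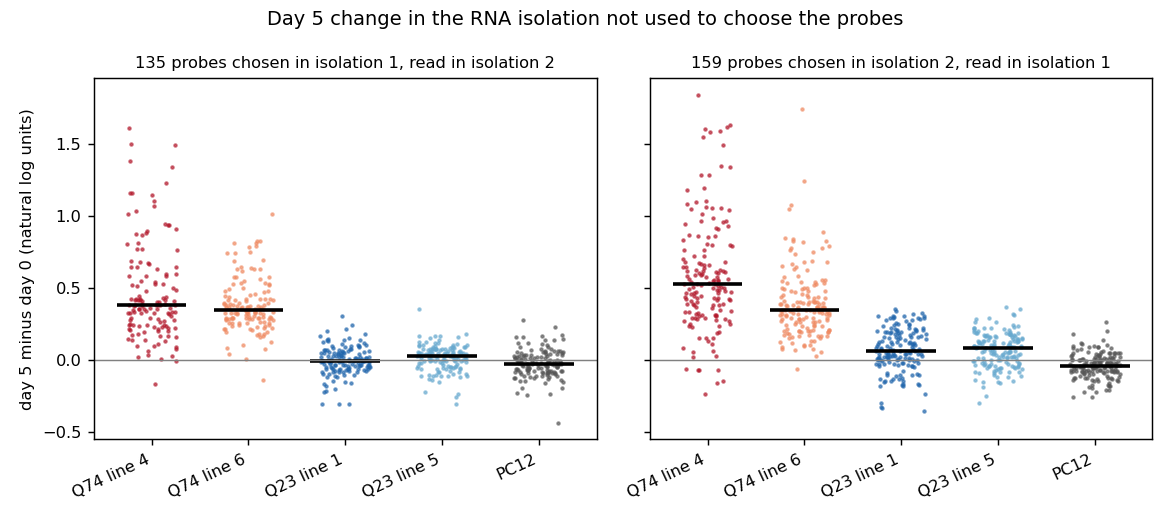
Change from day 0 to day 5 (y axis, natural log units) in the RNA isolation that was not used to choose the probes, for 135 probes chosen in isolation 1 (left) and 159 chosen in isolation 2 (right), by cell line; points are probes and black bars medians. The Q74 medians are 0.385 and 0.349 on the left and 0.529 and 0.351 on the right, and the PC12 medians are -0.0249 and -0.0352.

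For completeness the contrasts that the choice used are given as counts, from which nothing is read. With the line as a block in limma, 1381 of 22521 probes were called up from day 0 to day 5 in the Q74 lines (6.13%), and all 167 late risers were among them. The change from day 0 to day 5 was more upward in the Q74 than in the Q23 lines for 344 probes (1.53%), and 153 late risers were among them, with a highest adjusted p of 0.118 among the members. This second count was 61 with isolations as samples and a random block for the line, and 0 with no block. Calls over all probes were not counted under these or the following alternatives. Without Q23 line 1 it was 19, and without Q23 line 5 it was 14. It was 97 and 59 without RNA isolation 1 or 2, and 85 without Q74 line 4.

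The same limits with the sign turned chose 171 late fallers, a set close in number to the late risers. They fell by a median of 0.594 in line 4 and 0.425 in line 6, with the larger fall in line 4 for 129. The day 1 share of the fall had a median of 9.85% in line 4 and 18.4% in line 6, beside 11.4% and 6.09% of the rise of the late risers. In isolation 1 the share of the fall was 2.54% and 21.1%, and in isolation 2 it was 13% and 13.6%, so these shares also moved with the isolation. In PC12 the late fallers had a median day 5 change of -0.0334, beside -0.0207 for the late risers.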

How the data were processed

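On Illumina RatRef-12 arrays the authors took the mean over a probe's beads from BeadStudio 3.1.7, did not correct for background, and applied VSN in R 2.4.1. The deposited values are on a log scale that was taken as the natural log, because the highest, 11.1, equals the natural log of the largest 16-bit number (its log2 would be 16.0). The authors' methods do not state the base, and if it differed the folds, but not the differences, would change. VSN is close to linear for dim probes.

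Values were averaged over the 2 RNA isolations that each line gave per day. The members and gene lists were chosen with earlier results of these data known. All 22521 probes were fitted with limma 3.58.1 in R 4.3.3 on the 12 line and day means, which treats the lines as the replicates, with Benjamini-Hochberg adjustment over all probes and two-sided tests. Day 0 was compared without a block and changes over time with the line as a fixed block (4 residual degrees of freedom). PC12 arrays were not in the fit. Named probes are the 2 members with the largest smaller Q74 rise, since no probe was paired with a gene. The gene lists and cell type markers were therefore not tested. The labels name no chip or scan date, so batches were not tested. Alternatives were quantile normalization, centring on array medians, other limits, a variance trend with a robust prior, leaving out dim probes, isolations as samples, and leaving out each isolation and line.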

Additional observations from a re-analysis of the deposited data

Results flagged for a closer look

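In limma, 153 of the 167 late risers changed differently in the Q74 than in the Q23 lines between day 0 and day 5 (adjusted p under 0.05), against 344 of 22521 probes (1.53%) in the same direction. The count was 61 with a random block for the line, 0 with no block and 14 without Q23 line 5. The choice of probes used these changes, so the difference is expected from it and supports nothing. For ILMN_1349269 the difference between constructs in this change was 1.29 (standard error 0.11, adjusted p 2.6e-06 from limma), with a rise in 2 of 2 Q74 lines. For ILMN_1374039 it was 1.16 (standard error 0.073, adjusted p 4.9e-07 from limma), also with a rise in 2 of 2 Q74 lines. The choice required a rise in both Q74 lines of every member. These 2 probes were then picked for the largest smaller rise, so their adjusted p-values support nothing either. No group held enough independent samples to look for a single sample that stands apart.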

How the results depend on the processing

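The number of late risers, 167, was 283 with a rise of at least 0.25, 97 with 0.35 and 98 with a Q23 limit of 0.1. Leaving out each isolation or line in turn gave 135 to 842, where 842 is the count without Q74 line 6 and 290 that without Q74 line 4, since the rule then asks for a rise in 1 line only. It was 137 after quantile normalization (134 of them among the 167) and 205 after centring (166 among them). Counts of called members kept the 167 as chosen. Calls over all probes were not counted under the alternatives, so the member counts have no share beside them and are not read as traits. The calls on day 0 were 0, 9 with isolations taken as samples under a random block for the line, and 0 to 33 when an isolation or line was left out (33 without Q74 line 4, 3 without Q74 line 6). The isolation number as a replicate block gave 11. The labels do not say that the number marks a shared preparation, and deviations of same-numbered arrays correlated with a median r of 0.183 (-0.314 to 0.572) over 66 pairs of lines and days. The count of members called up in Q74 was 167, and with no replicate block for the line 14. The count for the difference in change was 153, 61 with the random block, 0 with no replicate block, and 14 to 153 with an isolation or line left out. Without a line, the other lines supply the spread. The calls for Q23 on day 1 were 0 under every alternative run. The PC12 median of -0.0207 was 0.00097 after quantile normalization, -0.0357 after centring, and -0.0294 to -0.0191 with an array left out per day. The 2 scalings moved the median of all probes by at most 0.00804 and 0.0301. With 2 lines per construct, even large differences on day 0 could go undetected. The cause of these changes was not tested.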
